A study of Mus musculus with 2 samples.

Results

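Glycolysis and hypoxia-response genes were examined in mouse embryonic stem cells (ESCs) and epiblast-like cells, in wild-type (WT) cells and in cells without Cnot8, a deadenylase of the Ccr4-Not complex that shortens the poly(A) tails of mRNAs. The members were 38 genes chosen by symbol: glucose transporters, the enzymes from hexokinase to pyruvate kinase, genes at the pyruvate and lactate branch, genes of glycogen storage, the hypoxia-inducible factor gene Hif1a with its prolyl hydroxylases, and genes known to be induced under low oxygen. All 38 were found among the 32286 features of both libraries. Aldoa was listed under a second identifier with next to no UMIs, and the main entry was used.

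The cells were of the ICR strain and came as 2 droplet libraries (single-cell RNA sequencing, scRNA-seq), 1 of ESCs (0 h) kept on feeders in serum/LIF and 1 of epiblast-like cells taken at 48 h (48h-EpiLCs) from Matrigel in N2B27 with activin A, bFGF and KSR. In both, WT cells with the ROSA mT/mG allele, which transcribe tdTomato, had been mixed with Cnot8 KO cells. The KO line had been derived from a blastocyst of heterozygote mice carrying a CRISPR/Cas9 lesion of exon 2 and had been propagated from a picked colony. A cell was counted as WT with at least 1 tdTomato UMI (unique molecular identifier, a count of captured transcripts) and none of the Y-linked Ddx3y, Eif2s3y, Kdm5d and Uty, and as KO with no tdTomato and at least 2 UMIs of these 4 genes. Each stage was 1 library without replicates, so stage, library and culture medium cannot be told apart, and neither can the Cnot8 lesion and any other difference between the lines, sex-linked genes included.

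This rule gave 435 WT ESCs, 2978 KO ESCs, 368 WT 48h-EpiLCs and 2977 KO 48h-EpiLCs, with between 6154790 and 59291903 UMIs per class and medians of 13151 to 17628 UMIs per cell, while 7641 ESCs and 6055 48h-EpiLCs fell into neither class. The libraries had 26 of the kept barcodes in common, and 35 cells in each held tdTomato and 2 or more Y-linked UMIs. Cnot8 UMIs were no check of the KO label, since 3′ UMIs do not show an exon 2 lesion. They amounted to 43.1 and 72.1 CPM (UMIs of a gene per 1000000 UMIs of the class) in WT and KO ESCs, and to 49.7 and 62.6 CPM in WT and KO 48h-EpiLCs. Of stage markers, Fgf5 was 2.76 and 1.29 CPM in WT and KO ESCs and 53.4 and 35.9 CPM in WT and KO 48h-EpiLCs, and Zfp42 was 304, 603, 37.5 and 97.1 CPM. Both thus differed between the lines too (log2 ratios of KO over WT of -1.10 and -0.57 for Fgf5 and 0.99 and 1.38 for Zfp42), and the part of this in the members' differences was not tested. Fibroblast markers summed to 14.5 CPM in WT and 43.6 CPM in KO ESCs, and primitive endoderm markers to 19.7 and 37.3 CPM. In 48h-EpiLCs these sums were between 7.07 and 13.1 CPM.

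Glycolysis splits glucose into pyruvate, and where lactate dehydrogenase reduces pyruvate to lactate the pathway can run without oxygen. Hypoxia-inducible factors bind a short DNA word in many of these genes and raise their transcription. With oxygen present, prolyl hydroxylases mark the factor's alpha subunit for breakdown, so its activity is set largely at the protein. Mouse pluripotent cells are known to differ in their reliance on glycolysis between naive and primed states.

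The core word bound by hypoxia-inducible factors was searched as ACGTG or GCGTG on both strands, which includes every CACGTG, an E-box. Promoter windows of 300 bases (250 before and 50 after the first-listed start of each gene) came from RefSeq on GRCm38.p6, and 35 of the 38 members had one. A match was found in 27 of these (77.1%), against 43.8% of 27025 genes with a window and 66.7% of the 7493 genes with a window that were measured in 48h-EpiLCs. Windows with 2 or more matches numbered 22 (62.9%), against 37.8% of the measured genes. The median share of G and C was 64.7% in the members and 61.3% in the measured genes. The 5 stretches printed here belong to members that were lower in KO cells of both libraries and were picked after the matches had been seen. They show how the words were spaced, run 5′ to 3′ along the gene, leave out annotated exons and have each match in capitals.
Bnip3, chr7:138909520-138909756 (minus strand): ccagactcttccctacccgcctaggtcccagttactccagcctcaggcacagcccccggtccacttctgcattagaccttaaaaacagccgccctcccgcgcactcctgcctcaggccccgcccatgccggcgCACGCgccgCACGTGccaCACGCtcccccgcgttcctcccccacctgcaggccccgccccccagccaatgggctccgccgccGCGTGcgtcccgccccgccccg
Ankrd37, chr8:45999868-46000100 (minus strand): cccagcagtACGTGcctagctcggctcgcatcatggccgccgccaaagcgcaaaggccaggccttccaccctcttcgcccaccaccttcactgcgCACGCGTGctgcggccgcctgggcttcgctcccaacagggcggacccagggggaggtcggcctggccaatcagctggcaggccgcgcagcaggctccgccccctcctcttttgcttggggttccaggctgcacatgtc
Pgk1, chrX:106186850-106187099 (plus strand): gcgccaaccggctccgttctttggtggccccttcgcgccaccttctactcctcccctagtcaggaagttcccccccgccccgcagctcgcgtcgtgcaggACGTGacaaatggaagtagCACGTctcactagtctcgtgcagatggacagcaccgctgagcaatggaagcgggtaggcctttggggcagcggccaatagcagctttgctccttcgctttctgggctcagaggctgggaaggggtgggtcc
Ldha, chr7:46845554-46845803 (plus strand): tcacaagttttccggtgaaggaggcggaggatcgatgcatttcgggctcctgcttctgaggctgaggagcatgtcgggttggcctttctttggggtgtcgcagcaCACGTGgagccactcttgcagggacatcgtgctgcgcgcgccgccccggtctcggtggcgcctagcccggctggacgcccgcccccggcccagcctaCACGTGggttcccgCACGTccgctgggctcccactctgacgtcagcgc
Adm, chr7:110627407-110627656 (plus strand): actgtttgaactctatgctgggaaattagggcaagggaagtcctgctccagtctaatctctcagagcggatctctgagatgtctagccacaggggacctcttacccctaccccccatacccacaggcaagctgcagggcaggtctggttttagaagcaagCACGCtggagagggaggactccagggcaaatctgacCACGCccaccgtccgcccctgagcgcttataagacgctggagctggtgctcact

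In the Bnip3 stretch, 4 of the 5 matches began between 117 and 99 bases before the start, and 2 of them overlapped within an E-box. Ldha held 2 E-boxes, beginning 145 and 48 bases before its start. Pgk1 had matches on both strands, at 150 and 131 bases. Of the 19 members with a window that were lower by 1.5-fold or more in KO 48h-EpiLCs, 15 had a match (78.9%), and of the other 15 measured members 11 did (73.3%). Windows with 2 or more matches numbered 12 (63.2%) among the former and 10 (66.7%) among the latter. These shares are counts of letters and say nothing of binding.

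How the lines differed was measured as the ratio of CPM, KO over WT, within each library. Members were mostly lower in KO cells. A gene was taken as measured with a mean of at least 5 CPM in the 2 classes, which left out only Car9 (0.325 to 1.75 CPM), and was counted as higher or lower past 1.5-fold. In ESCs, 12 of 37 measured members were lower in KO cells (32.4%, against 5.61% of 9277 genes) and 2 were higher (5.41%, against 13.9%). In 48h-EpiLCs, 22 of 37 were lower (59.5%, against 4.95% of 9385 genes) and 2 were higher (5.41%, against 9.04%). The median log2 ratio of the members was -0.52 in ESCs and -0.68 in 48h-EpiLCs, where the medians of all measured genes were 0.13 and 0.08. All 12 members that were lower in ESCs were also lower in 48h-EpiLCs, and Hk1 alone was higher in both. Of all genes past 1.5-fold in ESCs, 28.8% were lower in KO cells, and this share was 42.4% with TMM and 46.2% with median-of-ratios scaling, which shifted the median of all ESC ratios by -0.10 and -0.13. Either scaling gave 19 lower members in ESCs and 26 in 48h-EpiLCs. Under another rule that changed several choices together, the counts were 4 and 16. It took cells of at least 15000 UMIs only, counted as WT those without Y-linked and Ipp UMIs whatever their tdTomato, and left 1109 KO ESCs and 2039 KO 48h-EpiLCs, with a median of the members minus that of all genes of -0.46 and -0.61.

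**Figure D1:**
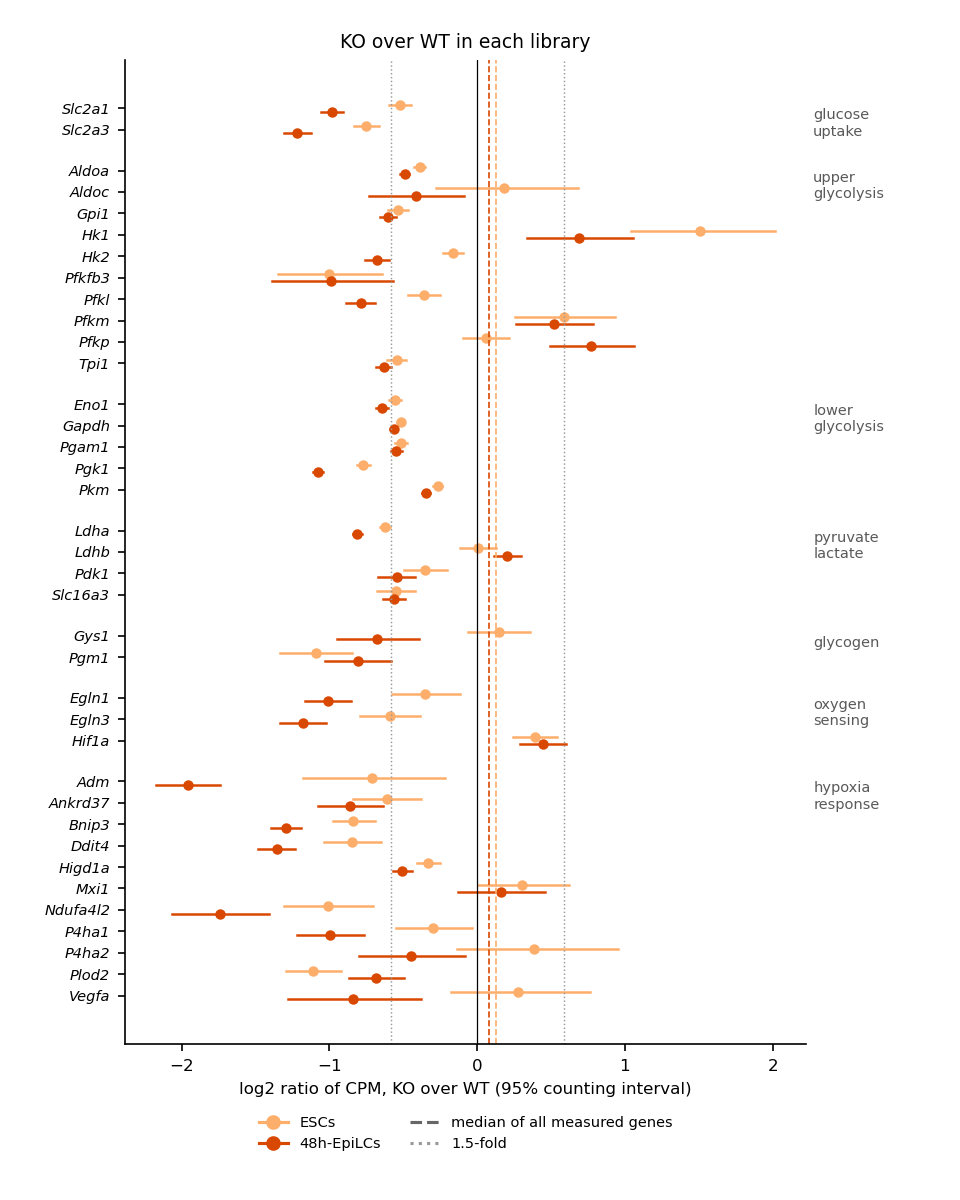
Log2 ratio of CPM, KO over WT, for the 37 measured members by role, in ESCs (light) and 48h-EpiLCs (dark). Bars are exact 95% binomial intervals of counting error, dashed lines the medians of all measured genes and dotted lines 1.5-fold, and the members lie mostly left of both medians, with 6 members above 0 in both libraries, Hk1 farthest in ESCs at 1.51.

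Glucose enters through facilitative transporters, and both that were measured were lower in KO cells. Slc2a1 (GLUT1) was 280 CPM in WT and 195 CPM in KO ESCs, and 281 and 142 CPM in WT and KO 48h-EpiLCs. Its log2 ratio of KO over WT was -0.52 (-0.60 to -0.45, 95% counting interval, as for all ratios here) in ESCs and -0.98 (-1.06 to -0.91) in 48h-EpiLCs, so that it passed 1.5-fold only in the latter. Slc2a3 (GLUT3) was 235, 140, 198 and 85.1 CPM in the same order of classes. It was 1.68-fold lower in KO ESCs and 2.33-fold lower in KO 48h-EpiLCs. The Slc2a1 level of WT cells did not differ between the stages beyond counting error (log2 ratio 0.01, -0.09 to 0.10), whereas KO cells had less of it at 48 h (-0.45, -0.50 to -0.41).

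Hexokinase, which traps glucose as glucose 6-phosphate, was represented by a pair of isozymes that went opposite ways. Hk2 was 351 CPM in WT ESCs, 314 CPM in KO ESCs, 227 CPM in WT 48h-EpiLCs and 142 CPM in KO 48h-EpiLCs, and its log2 ratio of KO over WT was -0.16 (-0.23 to -0.10) and -0.68 (-0.76 to -0.60). Hk1 was 6.17, 17.6, 11.4 and 18.4 CPM. It was thus higher in KO cells of both libraries, by log2 1.51 (1.04 to 2.02) in ESCs and 0.69 (0.34 to 1.05) in 48h-EpiLCs. Hk1 overlaps the antisense gene Hk1os, and whether counting used the strand is not given in the sources used here.

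Phosphofructokinase commits sugar to glycolysis, and its subunit genes also differed in direction. The liver type gene Pfkl was 130, 102, 160 and 92.7 CPM in WT ESCs, KO ESCs, WT 48h-EpiLCs and KO 48h-EpiLCs, lower in KO cells by 1.73-fold at 48 h. Pfkp, the platelet type, was 60.4, 62.9, 17.7 and 30.2 CPM, with no difference beyond counting error in ESCs (log2 ratio 0.06, -0.10 to 0.22) and 1.71-fold higher in KO 48h-EpiLCs. The muscle type Pfkm was 13.2, 19.8, 21.1 and 30.2 CPM, higher in KO cells of both libraries with log2 ratios of 0.59 (0.26 to 0.93) and 0.52 (0.26 to 0.79), the latter short of 1.5-fold. It overlaps Gm26513 on its own strand. Pfkfb3, which makes the allosteric activator of phosphofructokinase, was lower in KO cells at both stages, with 14.3 and 7.14 CPM in WT and KO ESCs and 9.97 and 5.03 CPM in WT and KO 48h-EpiLCs.

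The remaining enzymes of the upper pathway were lower in KO cells by about 1.5-fold or less, apart from Aldoc in ESCs. Glucose 6-phosphate isomerase (Gpi1) was 335, 231, 474 and 312 CPM in the 4 classes as ordered above, with log2 ratios of -0.54 (-0.61 to -0.47) and -0.61 (-0.66 to -0.55). Tpi1, which interconverts the triose phosphates, was 392, 269, 579 and 373 CPM (-0.55, -0.61 to -0.48, and -0.63, -0.69 to -0.58). Aldoa, the main aldolase gene, was 1175, 897, 1616 and 1149 CPM and stayed short of 1.5-fold in every comparison. Aldoc was 6.82, 7.75, 15.1 and 11.3 CPM, and its KO over WT ratio in ESCs did not differ from 0 beyond counting error (0.18, -0.28 to 0.68). At 48 h the ratio was -0.42 (-0.73 to -0.09), beside -0.49 (-0.52 to -0.46) for Aldoa.

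In the lower pathway, where ATP is made, Pgk1 stood out. Phosphoglycerate kinase 1 was 920 CPM in WT and 539 CPM in KO ESCs, and 1255 and 595 CPM in WT and KO 48h-EpiLCs, or log2 ratios of -0.77 (-0.81 to -0.73) and -1.08 (-1.11 to -1.04). It is the X-linked member, and the medians of 300 and 316 measured X-linked genes in the same comparisons were -0.03 and -0.01. Eno1 (enolase) was 952, 646, 969 and 620 CPM, past 1.5-fold at 48 h only (-0.65, -0.68 to -0.61). Gapdh, Pgam1 and Pkm lay between -0.57 and -0.27 in both libraries and so were lower in KO cells without passing 1.5-fold. Gapdh for instance was 2772 CPM in WT and 1934 CPM in KO ESCs, and 3570 and 2411 CPM in WT and KO 48h-EpiLCs. Several of these genes, Gapdh among them, have processed pseudogenes, and how reads that match both were handled is not given in the sources used here.

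Summed over the 15 enzyme genes from hexokinase to pyruvate kinase, Pfkfb3 included, transcripts took 0.983% of all UMIs in WT ESCs (0.975% to 0.991%, exact Poisson interval) and 0.717% (0.714% to 0.719%) in KO ESCs. In 48h-EpiLCs the shares were 1.18% (1.17% to 1.18%) and 0.791% (0.789% to 0.794%). The share in KO 48h-EpiLCs was thus below that in WT ESCs.

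At the pyruvate branch, Ldha, the isozyme gene associated with lactate production, was lower in KO cells, with 1442 and 937 CPM in WT and KO ESCs and 1505 and 858 CPM in WT and KO 48h-EpiLCs. The log2 ratios were -0.62 (-0.66 to -0.59) and -0.81 (-0.84 to -0.78). Ldhb did not follow, with 100 CPM in WT and 101 CPM in KO ESCs and 169 and 195 CPM at 48 h, a log2 ratio of 0.01 (-0.12 to 0.13) and 0.20 (0.11 to 0.30). Slc16a3, which exports lactate, was 98.6, 67.4, 276 and 187 CPM, nearly the same ratio in both libraries (-0.55 and -0.56). Pdk1, which holds back pyruvate dehydrogenase, was 74.6, 58.4, 95.5 and 65.4 CPM and stayed short of 1.5-fold.

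Glycogen storage was represented by phosphoglucomutase and glycogen synthase. Pgm1, the gene on chromosome 4 whose older symbol is Pgm2, was 29.6, 13.9, 32.5 and 18.5 CPM, 2.13-fold lower in KO ESCs and 1.75-fold lower in KO 48h-EpiLCs. Gys1 was 34.3 and 37.9 CPM in WT and KO ESCs, not different beyond counting error (0.15, -0.06 to 0.36), and 20.4 and 12.8 CPM in WT and KO 48h-EpiLCs (-0.68, -0.95 to -0.40).

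The proportions of isozymes differed between the classes. These shares are taken within a class and so do not depend on the scaling to class totals, and since each molecule is tagged at its 3′ end they are shares of captured transcripts, not of protein. Hk1 made up 1.73% (1.23% to 2.36%, Clopper-Pearson interval) of hexokinase UMIs in WT ESCs and 5.30% (4.95% to 5.68%) in KO ESCs, then 4.79% (3.76% to 6.0%) and 11.5% (10.8% to 12.1%) in WT and KO 48h-EpiLCs. Ldhb took 6.50% and 9.70% of lactate dehydrogenase UMIs in WT and KO ESCs, and 10.1% and 18.5% at 48 h. The Hk1 and Ldhb shares of KO ESCs thus lay close to those of WT 48h-EpiLCs, and both shares were highest in KO 48h-EpiLCs. Pfkl took 63.9% and 55.1% of phosphofructokinase UMIs in WT and KO ESCs, and 80.5% and 60.6% in WT and KO 48h-EpiLCs, so that its share was lower in KO cells each time. Slc2a1 took 54.3% and 58.2% of the Slc2a1 and Slc2a3 total in ESCs and 58.7% and 62.6% at 48 h.

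**Figure D2:**
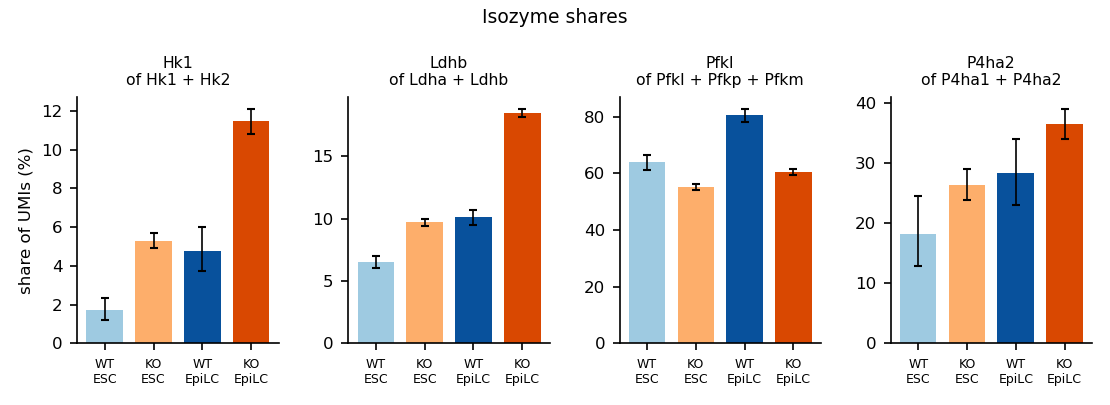
Share of UMIs (percent) that 1 isozyme gene took of its family in the 4 classes, with exact 95% Clopper-Pearson intervals as error bars. The Hk1 share went from 1.73% in WT ESCs to 11.5% in KO 48h-EpiLCs, and the Pfkl share was highest in WT 48h-EpiLCs at 80.5%.

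The oxygen-sensing genes did not move as a block. Hif1a, which encodes the oxygen-regulated alpha subunit, was higher in KO cells, with 67.4 and 88.5 CPM in WT and KO ESCs and 57.6 and 78.3 CPM in WT and KO 48h-EpiLCs (log2 ratios 0.39, 0.25 to 0.54, and 0.44, 0.29 to 0.60). It stayed short of 1.5-fold in both. The prolyl hydroxylase genes Egln1 and Egln3, which mark that subunit for breakdown and are themselves known targets of it, were lower. Egln1 was 30.2, 23.7, 63.5 and 31.5 CPM, a log2 ratio of -0.35 (-0.58 to -0.12) in ESCs and -1.01 (-1.17 to -0.85) in 48h-EpiLCs. Egln3 was 39.6, 26.3, 68.0 and 30.0 CPM, and its KO over WT ratio was 1.51-fold lower in ESCs and 2.27-fold lower in 48h-EpiLCs. Both were thus higher in WT 48h-EpiLCs than in any other class, and Hif1a was lowest there.

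Of the 11 measured hypoxia-response genes, 6 were lower in KO ESCs and 8 in KO 48h-EpiLCs, and none was higher by 1.5-fold in either. Of all measured genes 5.61% and 4.95% were lower, and 13.9% and 9.04% higher. Adm, the vasodilator peptide adrenomedullin, had the largest difference at 48 h among the members, with 7.47 and 4.56 CPM in WT and KO ESCs and 39.6 and 10.2 CPM in WT and KO 48h-EpiLCs. Its log2 ratio was -0.71 (-1.18 to -0.22) in ESCs and -1.96 (-2.18 to -1.74) in 48h-EpiLCs, or 3.89-fold lower. Ndufa4l2, a mitochondrial protein induced in hypoxia, was 19.2, 9.52, 17.2 and 5.14 CPM, 2.01-fold lower in KO ESCs and 3.34-fold lower in KO 48h-EpiLCs. Adm and Ndufa4l2 differed from each other across the stages, since WT cells had more Adm at 48 h but not more Ndufa4l2.

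Genes acting on mitochondria and growth signalling followed. Bnip3, a receptor for the removal of mitochondria, was 83.3 and 46.6 CPM in WT and KO ESCs and 157 and 64.2 CPM in WT and KO 48h-EpiLCs, with log2 ratios of -0.84 (-0.98 to -0.70) and -1.30 (-1.40 to -1.19). Ddit4, an inhibitor of mTORC1 signalling, was 44.5, 24.8, 109 and 42.4 CPM (-0.85, -1.04 to -0.65, and -1.36, -1.48 to -1.23). For Bnip3 the level in KO 48h-EpiLCs was below that in WT ESCs, while for Ddit4 these 2 levels did not differ beyond counting error. Ankrd37 was 30.4, 19.9, 33.0 and 18.1 CPM (-0.61, -0.84 to -0.38, and -0.86, -1.08 to -0.64). Higd1a, a mitochondrial inner membrane protein, was 259, 206, 336 and 236 CPM and stayed short of 1.5-fold.

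The collagen-modifying hydroxylases were divided. Plod2, a lysyl hydroxylase, was 51.8, 24.0, 45.0 and 28.0 CPM, and was the member of this group that differed more in ESCs (2.16-fold lower in KO) than in 48h-EpiLCs (1.61-fold lower). P4ha1, a prolyl 4-hydroxylase subunit, was 24.0, 19.6, 31.0 and 15.6 CPM, lower by 1.99-fold at 48 h. P4ha2 was 5.36, 7.01, 12.2 and 8.94 CPM and was within counting error of 0 in ESCs (0.39, -0.14 to 0.95). Vegfa, the angiogenic growth factor, was low throughout at 7.15, 8.66, 8.2 and 4.57 CPM, 1.79-fold lower in KO 48h-EpiLCs. Mxi1, an antagonist of Myc, was 16.1, 19.9, 16.9 and 18.9 CPM and did not pass 1.5-fold.

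**Figure D3:**
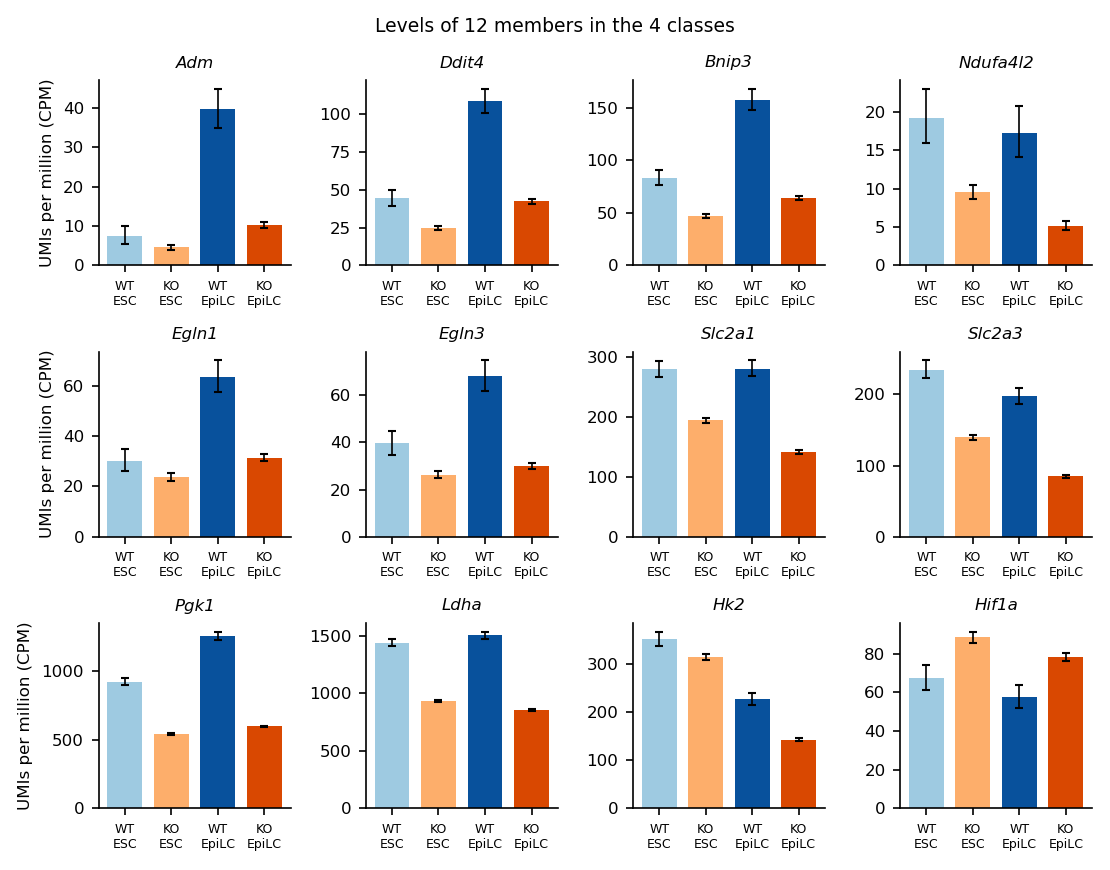
Level of 12 members (CPM) in WT and KO ESCs and WT and KO 48h-EpiLCs, with exact 95% Poisson intervals as error bars. The 8 hypoxia-response, prolyl hydroxylase and transporter genes and Pgk1, Ldha and Hk2 were lower in KO than in WT of the same stage, and Hif1a was higher, at 88.5 against 67.4 CPM in ESCs.

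The difference between the lines was larger at 48 h for most members. The KO over WT log2 ratio was lower in 48h-EpiLCs than in ESCs for 31 of 37 members, and for 25 of them the interval of the difference, from counting error, lay below 0. It lay above 0 for 3, namely Pfkp, Ldhb and Plod2. The largest differences were those of Adm (-1.25, -1.76 to -0.74) and Vegfa (-1.12, -1.74 to -0.50). The Vegfa value depends on which KO ESCs are counted. Its log2 ratio of 48h-EpiLC over ESC in KO cells was -0.92 with all cells. Without cells with fibroblast or primitive endoderm markers it was -0.41, and the difference between the lines was not computed for that setting. The difference was near 0 for Pgam1 (-0.03, -0.09 to 0.03) and Slc16a3 (-0.01, -0.16 to 0.13). These are differences between single libraries.

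Seen along the stages, WT cells had more of many members at 48 h. In WT cells 11 of 37 were higher in 48h-EpiLCs (29.7%, against 14.6% of 9242 genes) and 3 were lower (8.11%, against 12.4%). In KO cells 5 were higher (13.5%, against 9.51% of 9478 genes) and 6 were lower (16.2%, against 11.1%). The median log2 ratio of the members was 0.36 in WT and 0.14 in KO cells, with 0.03 and -0.02 for all measured genes. The comparisons share their classes with those between the lines, so they restate the same 4 values per gene.

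In WT cells Adm differed most, 5.29-fold higher in 48h-EpiLCs than in ESCs, and in KO cells it was 2.23-fold higher, where Gys1 (2.97-fold lower) and Slc16a3 (2.77-fold higher) differed more. Slc16a3 was higher alike in both lines, by log2 1.49 (1.35 to 1.62) and 1.47 (1.41 to 1.53), and Ldhb by 0.75 (0.61 to 0.90) and 0.95 (0.90 to 1.00). Egln1 on the other hand was 2.10-fold higher in WT 48h-EpiLCs but 1.33-fold higher in KO ones, and Egln3 1.72-fold and 1.14-fold. Hk2, Pfkp and Gys1 were lower at 48 h in both lines, Gys1 more so in KO cells (-1.57, -1.70 to -1.45) than in WT cells (-0.75, -1.08 to -0.42). Slc2a3, Ndufa4l2 and Vegfa were lower past 1.5-fold in KO cells alone by this count, and for each the interval of the difference between the lines lay below 0. Vegfa fell short of 1.5-fold (-0.41) once cells with fibroblast or primitive endoderm markers were left out.

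**Figure D4:**
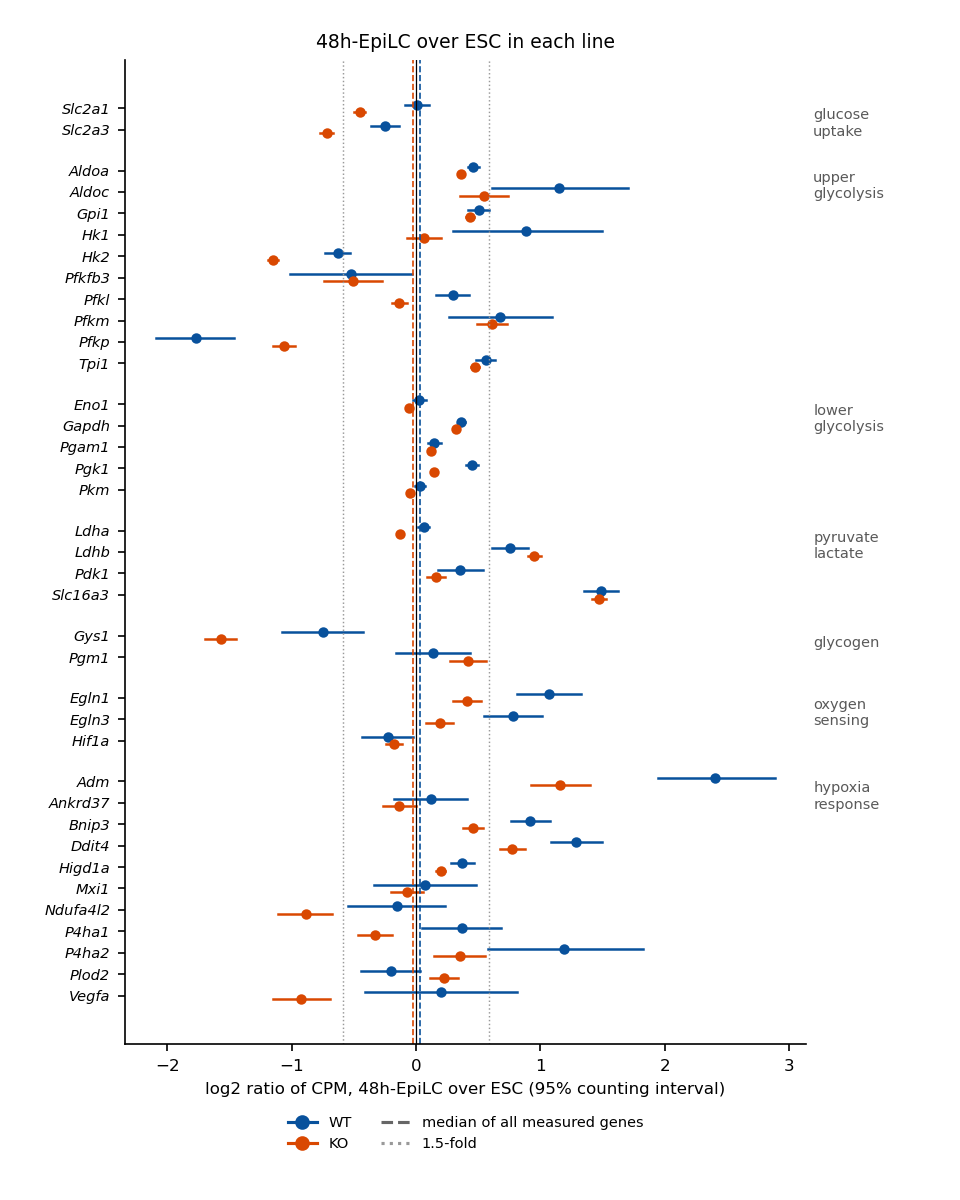
Log2 ratio of CPM, 48h-EpiLC over ESC, for the 37 measured members by role in WT and KO cells, with exact 95% binomial intervals of counting error, dashed medians of all measured genes and dotted 1.5-fold lines. Adm lies farthest right in WT cells at 2.40, Pfkp is farthest left in WT cells at -1.77, and KO points lie mostly to the left of WT points.

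Other genes of the pathways, taken from lists that held no member, divided in the same comparisons. Of 22 measured further targets of hypoxia-inducible factors, 11 were lower in KO 48h-EpiLCs (4.95% of all genes) and 2 were higher (9.09% of the list, against 9.04% of all genes), with a median log2 ratio of -0.55. Those lower past 2-fold were Fam162a (150 against 330 CPM in KO and WT), Bhlhe40 (8.62 against 23.3 CPM), Stc2 (6.16 against 17.5 CPM) and Ier3 (34.4 against 132 CPM). In ESCs 3 of 21 were lower (14.3%, against 5.61% of all genes) and 3 were higher (14.3%, against 13.9%, so near the background). Fam162a (-1.36, -1.44 to -1.28) and Stc2 (-1.12, -1.53 to -0.69) were among the former. Loxl2, a lysyl oxidase family gene, was among the latter (78.1 against 39.0 CPM in KO and WT).

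The lists of regulators and of neighbouring routes were short, and with 5.61% and 4.95% of all genes lower in KO ESCs and 48h-EpiLCs, a count of 0 lower genes among 7 to 10 is near the background. Of 10 measured other genes of the hypoxia-inducible factor pathway none was lower past 1.5-fold in KO cells of either library, and Epas1, which encodes a second alpha subunit, was higher in KO ESCs (67.5 against 37.9 CPM) and in KO 48h-EpiLCs (16.2 against 4.50 CPM, log2 ratio 1.85). Hif1an, which encodes an asparaginyl hydroxylase of the alpha subunit, was the other gene of this list counted as higher in KO ESCs (31.2 against 20.1 CPM). No gene of the pentose phosphate list (7 measured) passed 1.5-fold between the lines. Of the genes that carry pyruvate into mitochondrial oxidation (10 measured in ESCs and 9 in 48h-EpiLCs), none was lower in either library. In ESCs 1 was higher in KO cells (10.0%, against 13.9% of all genes), and in 48h-EpiLCs none was. Among other glycolytic genes, none of 8 passed in 48h-EpiLCs. In ESCs 3 of 10 were higher (30.0%, against 13.9% of all genes) and 1 was lower (10.0%, against 5.61%). Of the higher ones Fbp2, a fructose 1,6-bisphosphatase that runs the pathway in reverse, was at 31.1 against 13.5 CPM. At 48 h Fbp2 had a mean below 5 CPM and so was not among the 8. It was at 7.07 CPM in KO and 0.804 CPM (5 UMIs) in WT 48h-EpiLCs, a log2 ratio of 3.14 (1.90 to 4.77). Of glycogen genes, Gbe1, the branching enzyme, was lower in KO 48h-EpiLCs (4.92 against 11.9 CPM), whereas the phosphorylase gene Pygb was higher at both stages (log2 ratios 1.26 and 1.11).

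Variation between cells was described at an equal depth of 5000 UMIs per cell, which left out 1 to 23 shallower cells per class. The summed UMIs of the 14 hypoxia-response and oxygen-sensing genes without Hif1a averaged 3.22 ± 2.54 (SD over 434 cells) in WT ESCs and 2.21 ± 1.80 (2955 cells) in KO ESCs. In 48h-EpiLCs they averaged 4.80 ± 3.18 (367 cells) and 2.47 ± 1.79 (2968 cells). Cells with 5 or more of these UMIs made up 24.0% and 9.75% of WT and KO ESCs, and 44.4% and 12.3% of WT and KO 48h-EpiLCs. A large part of this sum came from Higd1a, which was short of 1.5-fold between the lines. Higd1a alone averaged 1.30 and 1.04 UMIs in WT and KO ESCs, and 1.77 and 1.11 in WT and KO 48h-EpiLCs. The 15 glycolytic genes summed to a median of 49 UMIs in WT and 34 in KO ESCs, and to 57 and 37 in WT and KO 48h-EpiLCs. The distributions overlapped at both stages, with the 10th percentile of WT 48h-EpiLCs at 43 and the 90th percentile of KO 48h-EpiLCs at 50.

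**Figure D5:**
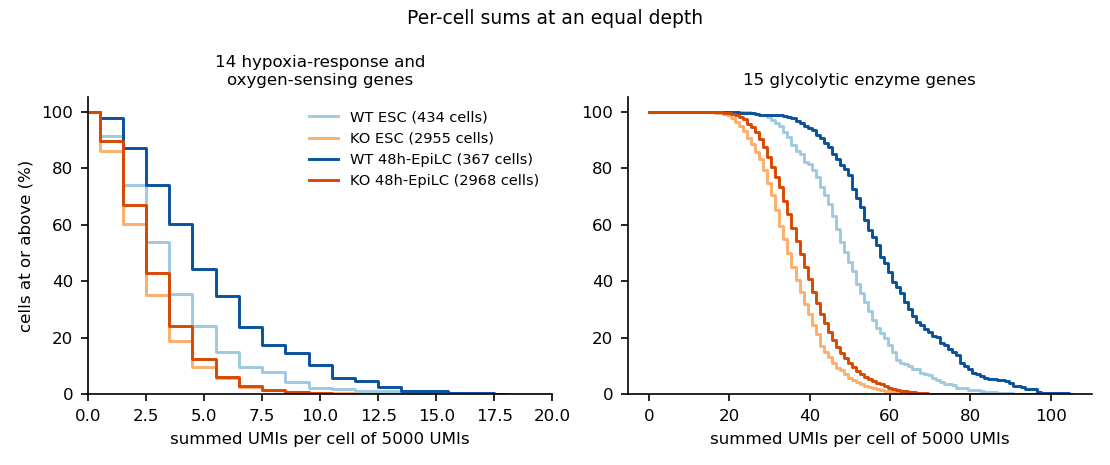
Percentage of cells with at least a given summed UMI count after thinning to 5000 UMIs per cell, for the hypoxia-response and oxygen-sensing genes without Hif1a (left) and the glycolytic enzyme genes (right). WT 48h-EpiLCs lie to the right of the other classes in both panels, with 44.4% of cells at 5 or more hypoxia-response UMIs against 12.3% of KO 48h-EpiLCs.

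The glycolytic and hypoxia-response sums were correlated from cell to cell, with higher values in WT than in KO cells. Pearson's r between them was 0.37 in WT ESCs, 0.24 in KO ESCs, 0.47 in WT 48h-EpiLCs and 0.26 in KO 48h-EpiLCs. The points are cells of 1 library at the same depth, and r is given as a description only. Both sums held fewer UMIs per cell in KO than in WT cells, as given above, and the part of this in r was not tested. Of the pairs of members, Pgk1 and Ldha had the highest r in 3 classes (0.45 in WT 48h-EpiLCs, 0.23 in KO 48h-EpiLCs and 0.19 in KO ESCs), and 0.28 in WT ESCs, where Ddit4 and Ndufa4l2 reached 0.31. The Fano factor, variance over mean, was 2.29 for Pgk1 and 2.26 for Ldha in WT 48h-EpiLCs, where the median of 7453 genes was 1.02 and the 90th percentile 1.16. In KO 48h-EpiLCs the Fano factors of Pgk1 and Ldha were 1.53 and 1.55. Their means also differed, at 6.32 and 7.45 UMIs per cell in WT and 2.83 and 4.11 in KO 48h-EpiLCs. No genes of like mean were compared, and the part of the mean in these Fano factors was not tested. With Hif1a itself the hypoxia-response sum had an r of -0.07 in WT and -0.03 in KO 48h-EpiLCs.

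The lists of other cell types bear on the ESC comparison above all. Cells with 5 or more fibroblast marker UMIs numbered 3 of the WT and 66 of the KO ESCs, and cells with as many primitive endoderm UMIs 8 and 82. Without all such cells, the members counted as lower and higher in KO ESCs were again 12 and 2, and in 48h-EpiLCs 22 and 2. Between the stages, 5 members were lower and 4 higher at 48 h in KO cells, against 6 and 5 with all cells. Vegfa and Pfkm were those that no longer passed 1.5-fold. In WT cells 3 were lower and 12 higher, against 3 and 11. UMIs of ribosomal protein genes amounted to 20.6% and 19.3% of the total in WT and KO ESCs and to 22.3% and 20.4% in WT and KO 48h-EpiLCs. Mitochondrial transcripts amounted to 3.92%, 3.85%, 3.04% and 3.24%. The part of these differences in the results was not tested.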

How the data were processed

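Per the labels and the methods of the study, 2 libraries were made with the Chromium Single Cell 3′ v2 protocol, and the authors produced the deposited UMI counts (whole numbers, not normalised) with Cell Ranger 3.0.2 on mm10 with tdTomato added; Seurat 4 is named in the processing notes of the submitters. Here the analysis was limited to cells of 1000 or more genes in which mitochondrial UMIs did not exceed 10%, classed by tdTomato and Y-linked UMIs, which favours deeper cells. UMIs were summed per class and scaled to the class total (CPM). Intervals of CPM and of the summed glycolytic share (exact Poisson), and of ratios and isozyme shares (exact binomial), are at 95% and cover counting error only. Cells are not replicates, so no p-value is given. A ratio had no pseudocount, and was counted past 1.5-fold. The members, the other lists and the rule for naming genes (every member past 1.5-fold in a comparison, with other list genes past 2-fold) were chosen with earlier results of these data known. Alternatives were TMM (edgeR 4.0.16, scaling only) and median-of-ratios scaling, filters of 20 CPM and none, a pseudocount of 1 CPM, other class rules, cell filters and weights, doublet scores (no doublets were removed otherwise) and, chosen after seeing the data, WT cells without tdTomato. Computations used Python 3.11.15 and scipy 1.17.1 and were tested on simulated data. The rule for naming genes has an exception, since 1 gene of the other lists is not reported here.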

Additional observations from a re-analysis of the deposited data

Results flagged for a closer look

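For 3 members the lines moved in opposite directions from ESCs to 48h-EpiLCs, each with a counting interval on its own side of 0. Whether this exceeds the spread between cultures was not tested. The log2 ratio of 48h-EpiLC over ESC was 0.29 (0.16 to 0.43) in WT and -0.13 (-0.19 to -0.08) in KO cells for Pfkl, the liver type phosphofructokinase. The same ratio was 0.37 (0.05 to 0.69) and -0.33 (-0.47 to -0.19) for P4ha1. For Ldha it was 0.062 (0.02 to 0.10) and -0.13 (-0.15 to -0.11), where the medians of all measured genes were 0.03 and -0.02.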

How the results depend on the processing

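No paired analysis was possible because each stage was 1 library and the labels give no replicate numbers. Of 945 values of single members under the alternatives, 848 stayed within the counting interval, 97 moved beyond it and 0 changed sign, while 38 calls no longer passed 1.5-fold, 17 of them with WT cells taken without tdTomato. The count of members higher in KO ESCs, 2 as reported, was 1 with TMM scaling, median-of-ratios scaling, a pseudocount of 1 CPM, KO cells of at least 1 Y-linked UMI and WT without tdTomato, and 0 with a filter of 20 CPM. The count lower in KO ESCs, 12, was 19 with TMM and with median-of-ratios scaling and 4 with WT without tdTomato. Under these scalings genes lower in KO made up 42.4% and 46.2% of all genes past 1.5-fold in ESCs, against 28.8%. For the 48h-EpiLCs, 1 member in place of 2 was higher in KO with a filter of 20 CPM, with WT by tdTomato alone and with WT without tdTomato. In WT cells 7 members in place of 11 were higher at 48 h with the filter of 20 CPM, which leaves fewer members. The median of the members minus that of all genes, KO over WT, was -0.65 in ESCs and -0.76 in 48h-EpiLCs. It was -0.39 and -0.54 without a filter, when genes of few UMIs enter both medians, and -0.61 in 48h-EpiLCs with WT without tdTomato. In ESCs it was -0.70 without the top 10% of doublet scores and -0.69 in cells of 8000 to 20000 UMIs. WT without tdTomato changed the depth, the WT rule and the KO cells together (826 ESCs and 1391 48h-EpiLCs of at least 15000 UMIs, without Y-linked and Ipp UMIs, beside KO cells of that depth). In it, WT cells cannot be told from KO cells in which these genes gave no UMI, and the cause of its smaller counts was not tested. Members near 5 CPM such as Pfkfb3, Hk1 and Vegfa rest on few WT UMIs.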
